A study of Mus musculus with 34 samples.

Results

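The genes described here encode the nuclear subunits of respiratory complexes II, III, IV and V of the mitochondrial inner membrane, with cytochrome c, the electron carrier between complexes III and IV. Members were the genes whose symbols begin with Sdh followed by a to d, Uqcr, Cox followed by 4 to 8, or Atp5 followed by a to o, together with Cyc1 and Cycs. The rule gave 43 symbols, of which 40 were listed in all 4 deposited tables, out of 8760 genes listed in all of them. These 40 comprised 4 genes of complex II, 9 of complex III, 11 of complex IV, 15 of complex V and Cycs. Cox6a2 was listed only for the culture, and Cox6b2 and Cox7a1 only for embryonic stem cells.

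Ribosome-protected mRNA fragments (RPF, or footprints) and RNA were sequenced from the hippocampus of C57BL/6N mice. Control mice received no stimulus. The other mice underwent contextual fear conditioning, a foot shock of 2 s after 148 s in a new chamber, and were taken at 5, 10 or 30 min or at 4 h. Single caging and handling for 3 min a day over 4 days are labelled for all of these animals. Each of the 5 groups had 3 replicates of each kind. A hippocampal primary culture labelled C57BL/6N and the mouse embryonic stem cell (ESC) line A3-1, given a siRNA against luciferase for 48 h, had 1 footprint and 1 RNA library each. No label says whether the replicates are separate mice, and the p-values therefore reflect the spread of these samples alone, which may be technical. The deposited value, called signal here, is a whole number of reads divided by 1 number per library, with no gene length in it, so signals are compared between libraries for a gene and not between genes as amounts. Tissue footprint libraries held 14240563 to 30480009 reads on listed genes and the RNA libraries 16814796 to 25515210. In culture the footprint and RNA libraries held 18771379 and 7282564, and in ESC 65147288 and 16686790. All 6 neuronal marker genes were listed in tissue and culture, and all 6 pluripotency markers in ESC. In bulk samples, fewer cells of a type and less RNA per cell cannot be told apart.

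Complex II oxidises succinate as a step of the Krebs cycle and hands electrons to ubiquinone. Complex III passes them to cytochrome c, complex IV passes them on to oxygen, and complex V, the ATP synthase, uses the proton gradient to make ATP. Complexes III, IV and V also hold subunits encoded in mitochondrial DNA, which are not members here, and the nuclear and mitochondrial parts are assembled together. Neurons depend on this chain for most of their ATP.

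Nuclear respiratory genes are known as targets of the transcription factors NRF1 and GABPA, an ETS family member, and YY1. By symbol, 33 of the 43 members matched RefSeq promoter windows (GRCm38.p6), with 36 windows in all, and 250 bases before each start were searched on both strands for GCGCATGC (NRF1), CCGGAAGT (ETS) and AAGATGGC (YY1). The NRF1 letters lay in 16.7% of member windows and 2.26% of all 32851 windows. The ETS letters lay in 8.33% and 2.88%, and the YY1 letters in 2.78% and 1.56%. A match is a description of letters and not a measured binding site. One excerpt is shown for the carrier, for complex II and for 3 genes of complex V, so that the letters can be seen beside the genes described below. Each is written 5′ to 3′ on the gene's strand, with the match in capitals.
Cycs (NRF1, chr6:50566611-50566640, minus strand): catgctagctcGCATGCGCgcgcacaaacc
Sdhb (NRF1, chr4:140961206-140961235, plus strand): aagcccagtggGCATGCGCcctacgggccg
Atp5g2 (NRF1, chr15:102671069-102671098, minus strand): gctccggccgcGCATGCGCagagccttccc
Atp5h (ETS, chr11:115419940-115419969, minus strand): ccaaggagagaACTTCCGGcaactctcttc
Atp5j (YY1, chr16:84835046-84835075, minus strand): aaagtgtaggaAAGATGGCggagtcttagc

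In control tissue most of these mRNAs carried more footprints for their RNA than the median gene did. The footprint to RNA ratio of each pair of libraries was taken as log2((RPF + 1)/(RNA + 1)), from which the pair's median over genes was subtracted, so that 0 is the median gene. No coding or transcript lengths entered it, so the part of length in differences of the ratio between genes was not tested. By limma with Benjamini-Hochberg adjustment, 33 of 40 members were higher than the median gene and 3 were lower, against 42.2% higher and 41.7% lower among all 7103 genes tested. The spread in this test was pooled over all 15 tissue pairs as if they were independent. Same-numbered libraries deviated together across groups, so the baseline p-values may be too small. The members' median was 0.76, or 1.69-fold of the median gene. A total of 18 members lay above the 90th percentile of all genes and 30 above the 75th, while 3 lay below the 25th. All 40 members passed the minimum mean signal of 1 in both kinds of library, and the smallest number of reads behind any of their values in tissue was 559 in footprints (Cox7c) and 403 in RNA (Uqcrq).

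Complex V was higher throughout, with 15 of 15 members called higher and a median of 0.98. Atp5g3, one of 3 genes for the same mature c subunit of the proton-driven ring, had footprint signals of 33.9, 34.6 and 36.6 in the 3 control libraries and RNA signals of 8.80, 7.82 and 8.30. Its ratio was 1.92 ± 0.09 (SD, n = 3), or 3.78-fold of the median gene (limma adjusted p = 4.73e-15). For Atp5d, the delta subunit of the central stalk, the control footprint signals were 21.0, 25.1 and 22.2 against RNA signals of 5.20, 5.41 and 5.70. That gave 1.84 ± 0.13 (SD, n = 3), and the 3 control pairs ranged from 1.74 to 1.99. Atp5j, which encodes factor 6 of the peripheral stalk, stood at 1.72 ± 0.10 (SD, n = 3).

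The low end of complex V lay close to the median gene. Atp5k, the e subunit on the membrane side, was the lowest, at 0.20 ± 0.22 (SD, n = 3, limma adjusted p = 0.0441). Its control pairs were -0.02, 0.20 and 0.41, and the call was lost without control replicate 3 (limma adjusted p = 0.412) and without replicate 2 (0.110). The call was also lost with a pseudocount of 0.1 (limma adjusted p = 0.0577). Atp5a1 and Atp5b, the alpha and beta subunits of the catalytic head, stood at 0.53 and 0.61, below the c ring genes (median 1.35) and the peripheral stalk (median 1.22). Among the 3 central stalk genes the spread was wide, since Atp5c1 was at 0.28 and Atp5e at 0.57 while Atp5d was near the top.

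In complex III, 6 of 9 members were called higher and 1 lower. Catalytic subunits Cyc1 (cytochrome c1) and Uqcrfs1 (the iron-sulfur protein) stood at 1.11 ± 0.23 and 1.06 ± 0.06 (SD, n = 3), and core proteins Uqcrc1 and Uqcrc2 at 0.96 and 0.92, all 4 called higher. Of the 5 small subunits, Uqcrb and Uqcrq were called higher, Uqcr10 (0.08) and Uqcr11 (0.10) were not called, and Uqcrh, the acidic hinge protein, was called lower at -0.47 ± 0.17 (SD, n = 3, limma adjusted p = 2.11e-06). With the replicate number as a block, Uqcr11 passed the threshold (limma adjusted p = 0.0147). The block takes the spread between numbers out of the error, and the control pairs of Uqcr11 were -0.01, 0.26 and 0.07. Uqcrh had footprint signals of 12.6, 13.2 and 15 against RNA signals of 19.5, 18.8 and 17.7, and all 3 pairs lay below the median gene.

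Uqcrq, a small membrane subunit that lies next to cytochrome b, had the highest ratio of all members and the widest spread. Its footprint signals were even, at 16.1, 18.5 and 18.0, but its RNA signals were 1.99, 1.40 and 4.82. The ratio was 2.38 ± 0.68 (SD, n = 3, limma adjusted p = 2.1e-06), with single pairs from 1.65 to 2.99. The high RNA of replicate 3 recurred in every group, as described below.

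Complex IV held the lowest members of the set. Cox7a2l, which encodes a factor of supercomplex assembly related to the Cox7a subunits, had footprint signals of 4.58, 4.99 and 6.19 against RNA signals of 15.3, 15.3 and 16. Its ratio was -1.45 ± 0.14 (SD, n = 3), or 0.367-fold of the median gene (limma adjusted p = 1.52e-11), which is at percentile 3.62 of all genes. Its paralog Cox7a2, the common form of the structural subunit, stood at 1.39 ± 0.18 (SD, n = 3), so both ends of this small family lay far apart and on opposite sides of the median gene. Cox7c, a small membrane subunit, was also lower, at -0.51 ± 0.35 (SD, n = 3, limma adjusted p = 0.00046), and Cox6a1 was not called (-0.05 ± 0.13).

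The other 8 members of complex IV were called higher. Cox5a, a subunit on the matrix side, had the highest value, with footprint signals of 21.4, 23.3 and 25.2, RNA signals of 5.60, 5.53 and 6.27 and a ratio of 1.8 ± 0.06 (SD, n = 3). Cox4i1, the common form of the largest nuclear subunit, was the lowest of the 8 at 0.27 ± 0.06 (SD, n = 3). In complex II, Sdha, the flavoprotein that binds succinate, stood at 0.83, and Sdhb, the iron-sulfur protein, at 0.56. The membrane anchors were lower within the complex, with Sdhc at 0.54 and Sdhd at 0.12. Sdhd was not called (limma adjusted p = 0.094), and its control pairs were 0.01, 0.30 and 0.04. It passed with the replicate number as a block (limma adjusted p = 0.00547), which leaves the spread between numbers out of the error. Cycs stood at 0.51 ± 0.15 (SD, n = 3).

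**Figure D1:**
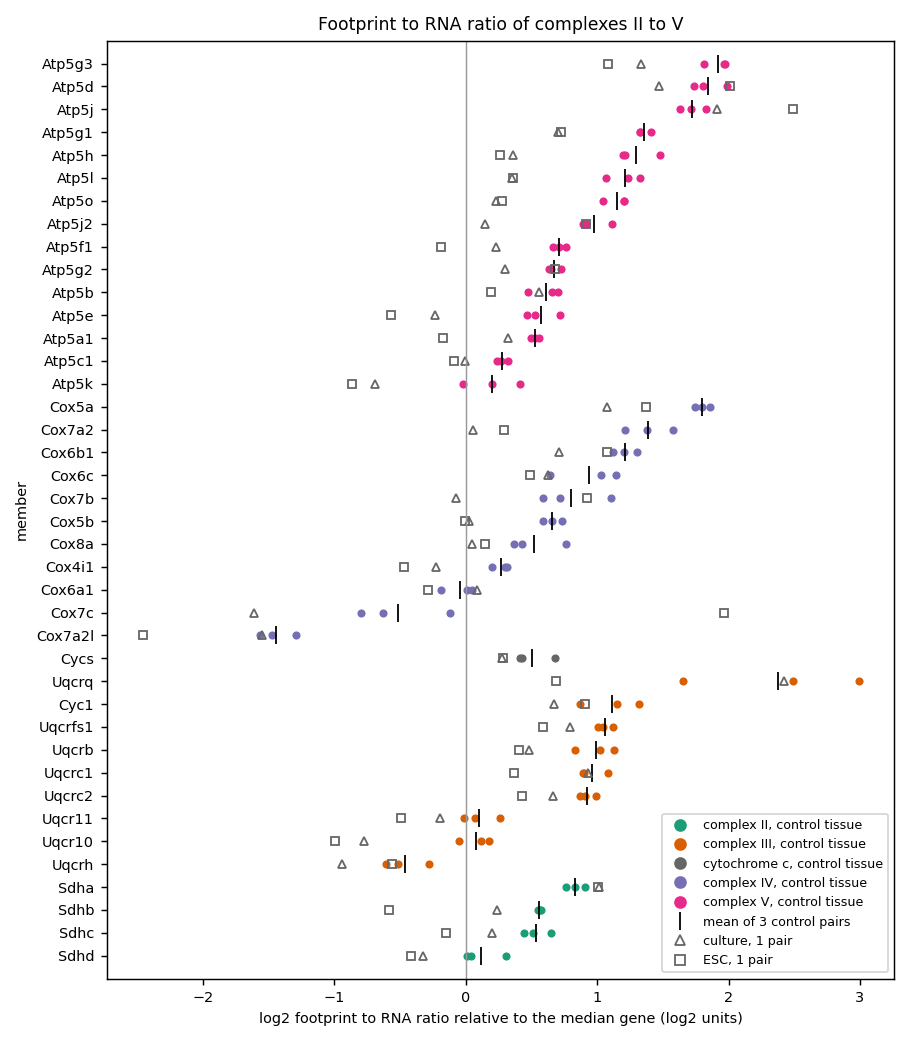
Footprint to RNA ratio of the 40 members, as log2 relative to the median gene of the same pair of libraries (horizontal axis), for each member (vertical axis, grouped by complex). Filled points are the 3 control pairs of tissue, the vertical stroke is their mean, and open triangles and squares are the single pairs of culture and ESC; Cox7a2l lies far to the left in all sources and the 15 complex V means all lie right of 0.

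Other mitochondrial gene lists gave a background for these ratios. Of the 39 tested symbols of the complex I list, which begin with Nduf followed by a, b, c, s or v, 32 were higher and 2 lower, with a median of 0.75. This list takes in symbols beginning with Ndufaf, which are assembly factors. Krebs cycle enzymes had 10 of 13 higher and none lower by limma (median 0.69), led by Mdh2, the mitochondrial malate dehydrogenase, at 2.22. Mitochondrial carriers and import proteins had 8 of 14 higher and 4 lower (median 0.65). Assembly factors of complexes II to V, which build the complexes and are not part of them, had 8 of 18 higher and 3 lower (median 0.11), from Coa5 at -2.0 to Cox17, the copper chaperone, at 1.15. Among 4 accessory ATP synthase genes outside the symbol rule, 2 were higher and 1 lower. Of 6 tested regulators of respiratory genes, 1 was higher (Yy1, 0.25) and 2 were lower (Tfam, which packages mitochondrial DNA, at -0.39, and Esrra at -0.28).

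After conditioning, none of the 40 members passed the threshold at any time in footprints, in RNA or in their ratio. By limma with Benjamini-Hochberg adjustment, 0 of 40 members were called in each of the 12 comparisons, where 0% of all genes were called in each (7898 genes in footprints, 8061 in RNA and 7103 for the ratio). The test for a difference at any time also called 0 members and 0% of genes in footprints and in RNA. At an unadjusted p under 0.05 without a block, limma gave 0 members in each footprint and ratio comparison. In RNA it gave 1 member at 10 min and at 4 h, which was Atp5k both times. Of all genes, 1.86% at 10 min and 2.59% at 4 h had such a p in RNA, which is near 1 of 40. With the replicate number as a block, again 0 members were called in any comparison. The smallest adjusted p of a member under the block was 0.0938, in RNA at 4 h. At an unadjusted p under 0.05, limma with the block gave 0 to 8 members per comparison, with 8 of 40 in RNA at 4 h. The share of all genes with such a p under the block is not given here, so these counts have no background.

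The fitted changes were small in size, but some in RNA exceeded their standard errors (SE), such as Atp5k at 10 min at 0.14 (SE 0.06). Member changes in footprints ran from -0.15 to 0.10 on the log2 scale over the 4 times, with a median SE of 0.12. In RNA they ran from -0.16 to 0.14 (median SE 0.07), and in the ratio from -0.16 to 0.11 (median SE 0.16). These SEs come from the fit without a block, so they include the spread between replicate numbers, and the unblocked p-values can be too large. The largest footprint change, Sdha at 5 min, had an unadjusted limma p of 0.437 without the block. With the block it was 0.0358 (limma adjusted p = 0.668). All 4 times were set against the same control libraries, so their values are not independent of each other.

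In footprints, 32 of 40 members had values below control at 5 min, 25 at 10 min, 28 at 30 min and 37 at 4 h. Of all genes tested, 52.7%, 49.7%, 39.2% and 48.8% did. The members' medians were -0.04, -0.01, -0.02 and -0.03, beside medians from -0.005 to 0.013 over all genes tested. At 4 h every complex had a median below 0, from -0.08 in complex II to -0.02 in complex IV, and 15 of 15 complex V members were on the lower side. In all 3 replicate numbers, 17 of the 40 were lower at 5 min, 5 at 10 min, 1 at 30 min and 10 at 4 h, against 22.9%, 12.02%, 6.43% and 10.0% of all genes. In RNA, 15 of 40 members had values above control at 5 min, 21 at 10 min, 19 at 30 min and 17 at 4 h, where 60.04%, 71.0%, 71.6% and 66.2% of all genes tested did. None of these lists of values passed a test gene by gene, as given above.

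Single members show the size of these differences. The largest fitted change in RNA was -0.16, for Atp5g1 at 4 h, which was not called. Its signals were 5.39, 6.42 and 6.36 in control and 4.64, 5.56 and 5.74 at 4 h. They were lower in 3 of 3 replicate numbers, with overlapping groups. Atp5k RNA was 8.43, 7.84 and 7.04 in the control libraries and 8.71, 8.6 and 8.64 at 4 h, without overlap of the groups. The log2 change was 0.14 (SE 0.06, unadjusted p = 0.0357, limma adjusted p = 1), higher in 3 of 3 replicate numbers. Without control replicate 3 it was 0.08. At 10 min it was 8.87, 8.42 and 8.71, which overlaps with control (log2 change 0.14, unadjusted p = 0.0333, limma adjusted p = 1).

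Uqcrfs1 RNA was among the 2 lowest p values on the lower side at every time. Its control signals were 5.53, 5.77 and 5.74. They became 5.14, 5.15 and 5.45 at 5 min, 5.40, 5.37 and 5.17 at 10 min, 5.36, 4.89 and 5.48 at 30 min, and 5.59, 4.80 and 5.23 at 4 h. The groups did not overlap with control at 5, 10 or 30 min and overlapped at 4 h, with log2 changes from -0.11 to -0.08 (SE 0.06) and limma adjusted p = 1. In footprints, Atp5a1 had the smallest p on the lower side at 5 min, with 53.2 ± 3.01 in control and 48.9 ± 4.45 at 5 min (SD, n = 3), a difference of -0.12 in log2 (SE 0.11, adjusted p of limma = 1). Uqcrh footprints were 12.6, 13.2 and 15 in control and 11.2, 12.5 and 13.7 at 4 h, lower in 3 of 3 numbers with overlapping groups (log2 change -0.12, SE 0.13, limma adjusted p = 1).

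On the higher side, footprints of Cox8a, a small subunit of complex IV, were 42.8, 58.7 and 51.6 in control and 44.7, 60.6 and 58.7 at 5 min. All 3 numbers were higher, and the groups overlapped (log2 change 0.10, SE 0.20, limma adjusted p = 1). Further members with the 2 smallest p values in a direction were Atp5e, Uqcr11, Cyc1, Cox7a2l, Cox6a1, Uqcrc2, Sdha, Cycs and Sdhd in footprints and Cox6c, Cycs, Uqcrb, Cox7b, Sdhc, Sdhd and Uqcr11 in RNA. For the ratio they were Uqcr11, Atp5e, Uqcrfs1, Atp5d, Uqcrb, Cox6c, Atp5k, Atp5f1 and Uqcrh. All of them had limma adjusted p = 1 without the block.

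**Figure D2:**
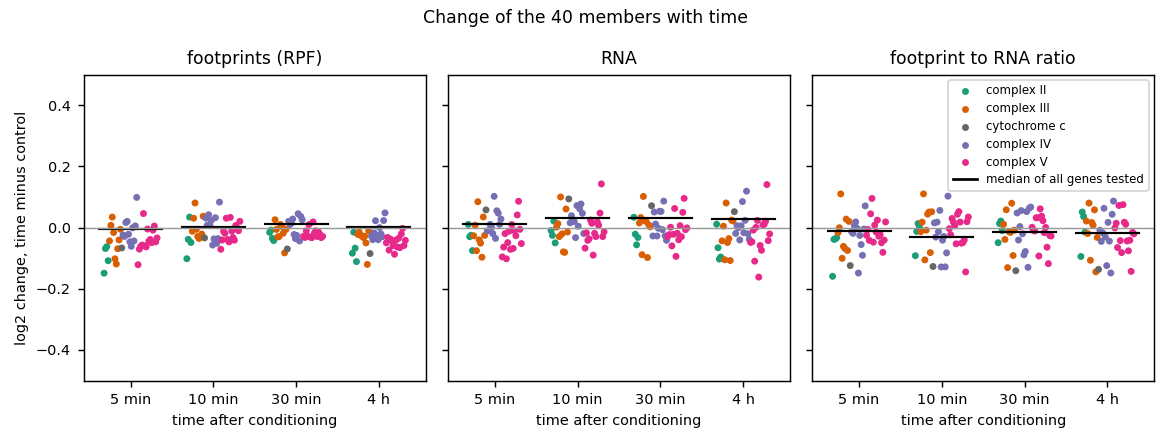
Fitted log2 change of each of the 40 members from control (vertical axis) at 5, 10 and 30 min and 4 h after conditioning (horizontal axis), in footprints, RNA and their ratio. Points are members coloured by complex and black bars are the median of all genes tested; all points lie between -0.16 and 0.14.

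The median ratio of each complex overlapped between control and every time. Complex III was at 0.94 ± 0.07 in control and between 0.88 and 0.97 at the 4 times, and complex V at 0.98 ± 0.12 in control and between 0.93 and 0.96 later (SD, n = 3). Complex IV was at 0.68 ± 0.08 in control and between 0.66 and 0.70 later. Complex II was at 0.55 ± 0.05 in control and 0.60 ± 0.08 at 4 h (SD, n = 3). Its control pairs were 0.51, 0.54 and 0.60 and its 4 h pairs 0.51, 0.65 and 0.65, each above control of the same number. Complex III at 5 min had pairs of 0.94, 0.89 and 0.79 against 0.89, 1.02 and 0.90 in control. The largest difference of a time from control was -0.06, for complex III at 5 min, and the SDs of the groups ran from 0.02 to 0.18. Over all 15 pairs complexes V and III lay above complexes IV and II by median, and the ranges of complexes III and V overlapped, at 0.79 to 1.04 and 0.81 to 1.16. Complex IV, at 0.52 to 0.82, overlapped with the low end of both. With summed signals in place of medians, complex III was at 0.60 to 0.80, IV at 0.54 to 0.74 and II at 0.53 to 0.70, all overlapping. Complex V was then at 0.82 to 1.08.

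**Figure D3:**
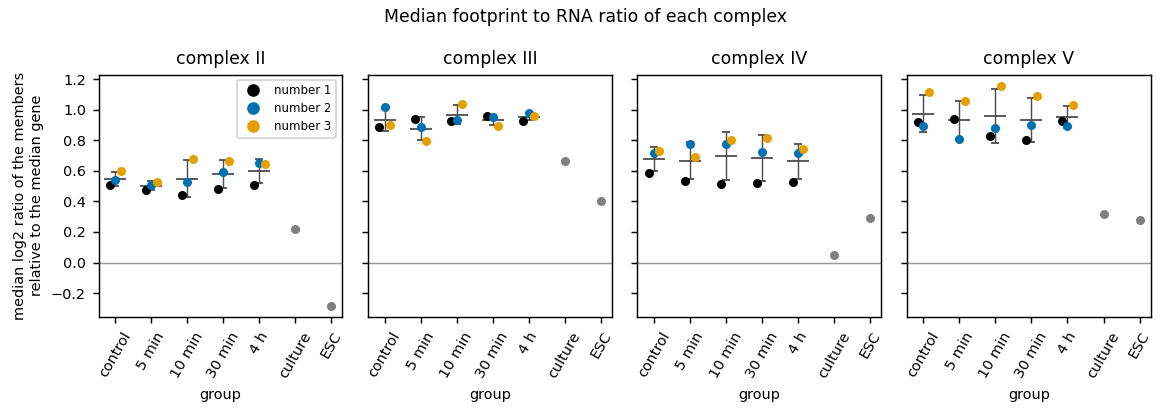
Median log2 footprint to RNA ratio of the members of each complex, relative to the median gene (vertical axis), by group (horizontal axis). Points are single pairs of libraries, coloured by replicate number in tissue and grey for the single pairs of culture and ESC, and bars are mean ± SD (n = 3); control and the 4 times overlap in each complex, and both cell sources lie below all tissue pairs.

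The members, like genes over the whole tables, differed far more between replicate numbers than between times. Numbers 1, 2 and 3 occur once in each group, and same-numbered libraries of different groups deviated together. A limma F-test across the 3 numbers called 38 of 40 members in footprints, where 73.1% of all genes were called, and 26 of 40 in RNA, where 65.5% were called. The exceptions in footprints were Cyc1 (adjusted p = 0.667) and Atp5b (adjusted p = 0.691). The members' count in RNA was near the share of all genes. For the complex I list the same test called 37 of 40 in footprints and 24 of 39 in RNA. Without number 1 the F-test called 14 members in footprints, where 17.2% of all genes were called, and 9 in RNA, where 19.0% were called.

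In footprints 32 of 40 members had all 5 libraries of number 3 above all 5 of number 1, and 3 had them all below, against 21.0% and 26.0% of all genes. In RNA this held for 16 above and 3 below, against 12.5% and 28.9% of all genes. The median ratio of number 3 to number 1 was 1.22 for the members in footprints and 0.983 over all genes tested, and in RNA 1.06 and 0.955. All 11 members of complex IV and 12 of 15 of complex V were above without overlap in footprints. With the signal of each library centred on its median gene, the F-test called 38 members in footprints and 33 in RNA, against 73.4% and 64.1% of all genes.

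The 32 members on the higher side in footprints included the catalytic Sdhb (ratio of number 3 to number 1 of 1.11) and Cox4i1 (1.22). Cox6b1, a subunit on the side where cytochrome c docks, had footprints of 37.0 to 39.5 in number 1, 41.0 to 44.2 in number 2 and 49.2 to 53.2 in number 3, a ratio of number 3 to number 1 of 1.35. Cycs footprints were 16.5 to 18.2 in number 1 and 21.6 to 23.1 in number 3, while its RNA was 13.1 to 14 and 13.5 to 14.9, with overlap. Cox7c footprints were highest in number 2, at 3.30 to 3.47, with 1.53 to 1.82 in number 1 and 2.22 to 2.44 in number 3. Cox8a had its highest mean in number 2, with 58.7 to 64.6 against 41.9 to 44.7 in number 1. Number 3, at 50.6 to 58.7, overlapped narrowly with number 2.

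The 3 members on the lower side in footprints were Sdha, Uqcrc2 and Atp5a1. Sdha footprints were 21.6 to 24.7 in number 1 and 16.7 to 20.7 in number 3, and its RNA 12.1 to 13.1 and 10.2 to 11, both without overlap. The ratio of number 3 to number 1 was 0.798 in Sdha footprints, 0.864 in Uqcrc2, 0.857 in Uqcrc1 and 0.897 in Atp5a1. Of these only Uqcrc1 overlapped between the numbers. Atp5b went down in RNA, with a ratio of 0.872, and not in footprints, with 1.03.

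Uqcrq RNA differed most of all member values. It was 1.52 to 1.99 in number 1, 1.23 to 1.58 in number 2 and 4.82 to 5.54 in number 3, a ratio of number 3 to number 1 of 2.96. Its footprints were 15.3 to 16.1 in number 1 and 17.3 to 19.2 in number 3, a ratio of 1.17. In RNA the libraries of number 3 lay above all others, and those of numbers 1 and 2 overlapped. In footprints number 3 also lay above number 1 without overlap.

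Summed signals of markers of some other cell types also differed between the numbers. The 8 choroid plexus markers, genes of the epithelium in the ventricles that borders the hippocampus, summed to 1311 to 2086 in footprints of number 1, 921 to 1896 in number 2 and 68.3 to 494 in number 3. All 8 were listed. Astrocyte markers, 6 of 6 listed, summed to 461 to 506 in number 1, 321 to 421 in number 2 and 369 to 433 in number 3. Microglia markers, 6 of 6 listed, summed to 50.01 to 55.5, 36.6 to 46.8 and 43.6 to 48.1. Neuronal markers summed to 558 to 575, 547 to 624 and 578 to 634, so that number 2 overlapped with both others. Oligodendrocyte markers, 6 of 6 listed, overlapped between all numbers, at 332 to 378, 267 to 348 and 328 to 383. The part of these differences in the members' values was not tested.

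**Figure D4:**
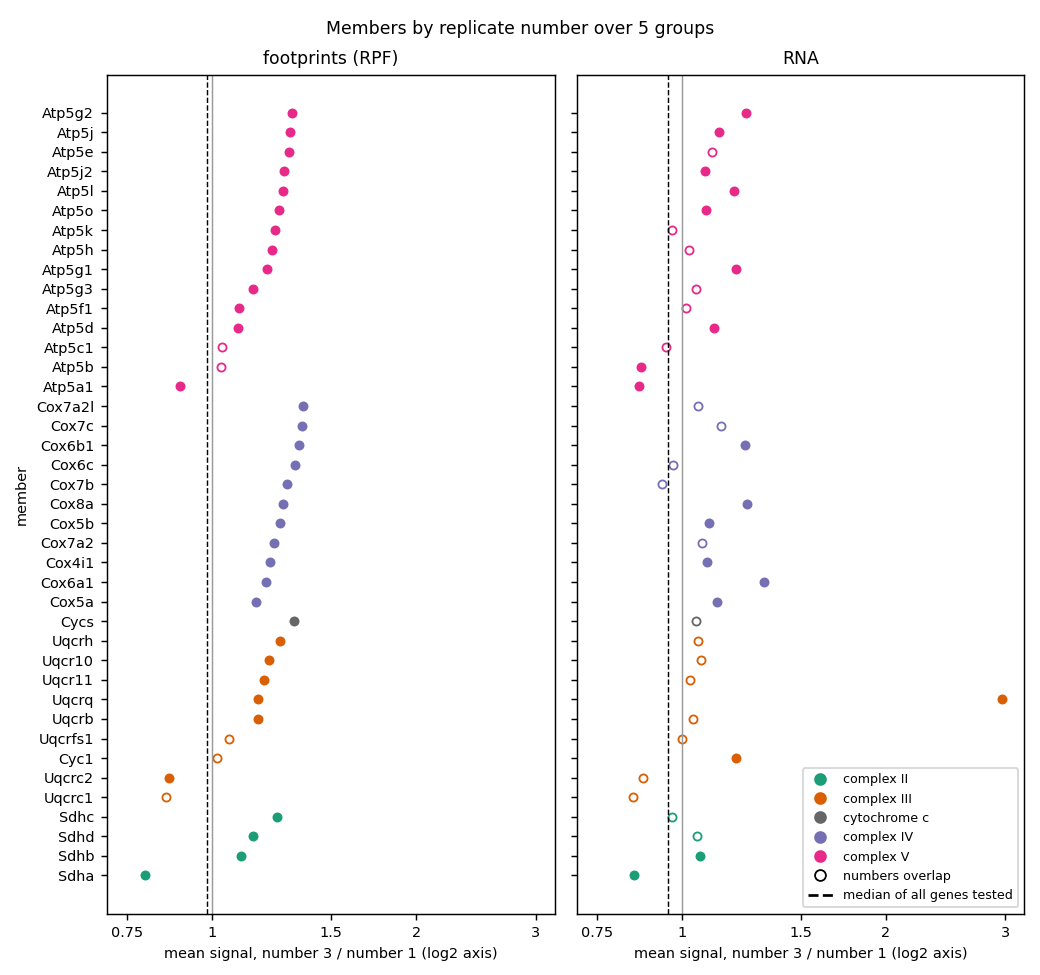
Mean signal of replicate number 3 divided by that of number 1, over 5 groups (horizontal axis, log2 scale), for each member (vertical axis, grouped by complex) in footprints and RNA. Filled points mark members whose libraries of both numbers do not overlap and the dashed line is the median of all genes tested; most footprint points lie right of 1, and Uqcrq RNA lies far right at 2.96.

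In both cell sources the ratio of these genes was nearer to the median gene than in tissue. The members' median was 0.76 in control tissue, 0.26 in the culture and 0.29 in ESC, and 36, 29 and 25 of 40 members were above the median gene. By complex the values were 0.22 in culture and -0.28 in ESC for complex II, 0.66 and 0.40 for complex III, 0.05 and 0.29 for complex IV, and 0.32 and 0.28 for complex V. Each of these values lay below all 15 tissue pairs of that complex. With summed signals in place of medians, complex II was at 0.49 in culture and 0.083 in ESC, where its sign turned, complex III in ESC was at 0.15 and complex V in culture at 0.50. There was 1 pair of libraries per cell source, so these differences have no replicate check and no test.

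The order of the members was partly shared between sources. Across the 40 members the ratio in control tissue and in culture had Pearson r = 0.894 and Spearman rho = 0.824, and control tissue and ESC had 0.678 and 0.711. These are descriptions across genes, which are not independent replicates. Cox7a2l was again low, at -1.55 in culture and -2.46 in ESC, where it was at percentile 0.295 of genes. Atp5j (1.91 and 2.49), Atp5d (1.47 and 2.01), Atp5g3 (1.33 and 1.08) and Cox5a (1.08 and 1.37) were high in both. Uqcrq was at 2.42 in culture and 0.69 in ESC. Sdha had 1.01 and 1.00, the only complex II member above its control value in both.

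For levels, reads were taken per 1000000 reads on the 8760 shared genes (RPM), and a gene counted as higher or lower at 2-fold or more from the mean of 3 control libraries. Of 40 members, 39 had a signal of at least 1 in all 4 libraries of the cell sources and in the control means. In culture footprints 0 members were higher and 9 lower, against 9.94% higher and 7.01% lower of all 4153 genes. In culture RNA 3 were higher and 1 lower, against 12.5% and 2.89%. Centred on the median gene, 0 members were higher, and 245 genes were higher and 255 lower in place of 518 and 120. For the culture's ratio 0 were higher and 2 lower, against 3.11% and 0.819%.

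In ESC footprints 2 members were higher and 5 lower, against 25.4% higher and 30.8% lower of all genes. In ESC RNA 16 were higher and 1 lower, against 29.7% and 25.5%, and for the ratio 0 were higher and 6 lower, against 11.3% and 6.28%. The members' median change in ESC was 1.55-fold in RNA (log2 0.64) and 0.882-fold in footprints (log2 -0.18). Over all 4153 genes the median log2 changes were 0.10 in RNA and -0.16 in footprints, so the members' footprint median was near that of all genes. By complex, RNA was 2.53-fold of control in complex III, 2.19-fold in complex II, 1.98-fold in complex V and 1.06-fold in complex IV. The summed signal of the 6 neuronal markers was 234 in culture footprints, and ESC had 2 of the 6 listed at a sum of 0.927. The makeup of cells and the source cannot be told apart here.

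Uqcrc1 had the highest RNA fold of all members in both sources. Its control libraries held 247 to 307 RPM of footprints, the culture 551 (95% Wilson interval 540 to 563) and ESC 606 (600 to 612). Its RNA was 125 ± 9.20 RPM in control (SD, n = 3), 301 in culture and 512 in ESC, or 2.41-fold and 4.11-fold. Centred on the median gene, its culture RNA was below 2-fold, as for every member. Such intervals of a single library hold counting error alone, and PCR copies of 1 molecule count as separate reads.

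Atp5a1 and Atp5b, the subunits of the catalytic head, stood next to it in ESC RNA at 3.24-fold and 2.99-fold, with 1.67-fold and 1.88-fold in footprints. Atp5g2 had the highest footprint fold of the 39 members in ESC, at 2.30-fold with RNA at 2.83-fold. In ESC RNA, Uqcrq, Uqcr10 and Uqcrb of complex III were at 2.60-fold, 2.58-fold and 2.54-fold. The Uqcrq fold rests on control libraries that ranged from 28.6 to 94.9 RPM, against 138 in ESC. Other members were lower than control tissue in footprints. Atp5e, the epsilon subunit of the central stalk, had 316 to 407 RPM of footprints in control, 112 in culture and 122 in ESC, or 0.312-fold and 0.340-fold, with RNA at 0.667-fold and 0.935-fold. Cox8a footprints were 0.427-fold in culture and 0.283-fold in ESC, with RNA at 0.692-fold and 0.435-fold. Cox7a2 footprints were 0.384-fold and 0.433-fold while its RNA was 1.18-fold and 1.14-fold. Cycs was 0.740-fold in culture footprints and 0.395-fold in ESC.

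**Figure D5:**
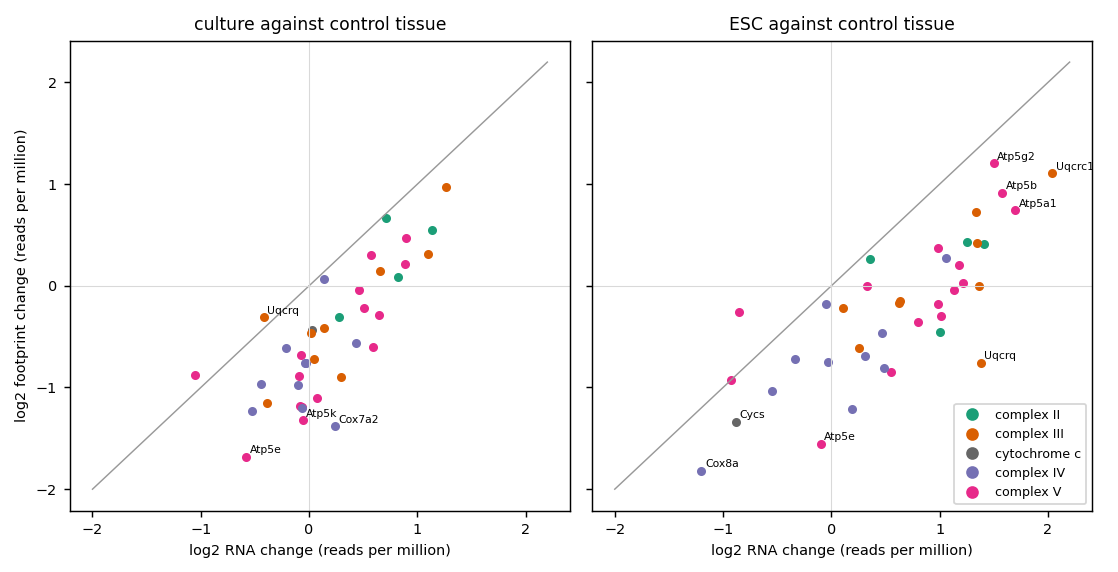
Log2 change from control tissue in RNA (horizontal axis) and footprints (vertical axis), both in RPM, for 39 members in culture and ESC (1 library of each kind, so no error bars). Points are coloured by complex and the diagonal marks equal change; most points lie below it, with Uqcrc1 highest in RNA in both sources.

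The 3 genes of the c subunit shared their footprints differently by source. Atp5g2 held 16.4% ± 1.11 of the footprints of all 3 genes in control tissue (SD, n = 3), and 15.2 to 18.3% over all 15 tissue libraries. It held 16.2% in culture (95% Wilson interval 15.6 to 16.9) and 31.8% in ESC (31.5 to 32.1). Atp5g3 held 55.8% in control tissue, 47.6% in culture and 41.3% in ESC, and Atp5g1 27.8%, 36.1% and 26.9%. In RNA, Atp5g2 held 29.2% ± 1.90 in control (SD, n = 3), 24.6% in culture and 35.8% in ESC.

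The 3 remaining members are tissue-specific isoforms of complex IV, each listed for 1 cell source. Cox6a2, the heart and muscle form of Cox6a1, had a culture signal of 3.61 in footprints (1145 reads) and 1.56 in RNA (222 reads). Cox7a1, the heart and muscle form of Cox7a2, had an ESC signal of 1.33 (872 reads) and 1.14 (246 reads), and Cox6b2, the testis form of Cox6b1, 1.06 (696 reads) and 0.186 (40 reads).

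Cox7c stood apart in ESC. Its RNA signal was 0.233, from 50 reads on the shared genes, against control signals of 3.63, 3.56 and 3.85, which is 0.0450-fold in RPM. Its ESC footprint signal was 4.5, or 0.997-fold in RPM. The RNA signal was under the minimum of 1, so Cox7c was left out of the 2-fold counts and kept in the ratios, where it stood at 1.96 in ESC and -0.51 in control tissue. Without it, a choice made after seeing the data, 24 of 39 members were above the median gene in ESC and the complex IV median there was 0.22. The correlations with control tissue were then r = 0.839 and rho = 0.824 across 39 members. RefSeq (GRCm38.p6) names pseudogenes for 7 members, with 1 for Cox7c, 4 for Atp5k, 3 for Cycs, 2 each for Uqcrh and Atp5l, and 1 each for Cox5b and Atp5c1. Only pseudogenes named by a member's own symbol were searched for, so other members may have copies too. The labels do not say how reads matching such copies were counted, and the values of at least these 7 genes are uncertain.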

How the data were processed

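Footprint and RNA libraries of 15 tissue samples each, and 1 of each kind from culture and ESC, were used as the authors deposited them. The submitters' processing notes name CASAVA 1.8.2, Bowtie 1.1.1 and the mouse build mm9. The deposited value is an unnamed signal per gene: times 1 divisor per library, every signal came within 0.001 reads of a whole number. The labels do not say how shared or antisense reads were counted.

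Members passed a mean signal of at least 1. Tests used limma 3.58.1 (R 4.3.3, lmFit and eBayes with trend) on log2(signal + 1), 2-sided, with all 5 groups in the model and no block. Benjamini-Hochberg adjustment covered every gene tested, at a threshold of 0.05. Changes on this scale understate those of low genes. The ratio was tested as an interaction over 30 libraries and, at baseline, against the median gene. The code was tested on simulated data. Named members were those past a threshold, the highest and lowest ratio of each complex, the 2 smallest p values per direction and comparison, and isoform families. No comparison per coding length was made, since no coding lengths were used here. Members and lists were chosen with earlier results of these data known.

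The replicate numbers in the labels paired the samples: deviations of same-numbered libraries correlated at 0.402 to 0.938 in footprints and 0.268 to 0.870 in RNA, over 30 pairs each. Alternatives were another pseudocount, no filter, the block, centring and leaving out replicates.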

Additional observations from a re-analysis of the deposited data

How the results depend on the processing

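Over all alternatives, no time comparison called a member. Gene counts over the whole tables moved where the replicate number was a block: 4 genes in footprints at 30 min and 6 at any time, 3, 2, 2 and 1 in RNA at 5, 10 and 30 min and 4 h and 5 at any time, and 1 for the ratio at 5 min. Without a filter they were 1 in footprints at 10 min, 1 at 30 min and 2 at any time, and 1 in RNA at any time. The block changed the calls of 2 members at baseline, as given with them, and no other member's call in the baseline and time comparisons. For the baseline ratio, no filter gave 4690 genes higher and 4657 lower, as more genes were tested. In the leave-one-out fits of the replicate number, genes called ran from 1356 to 5372 in footprints and 1529 to 4955 in RNA, and members from 14 to 37 and 9 to 28, lowest without replicate 1 in each.

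Summed signals in place of medians gave a ratio of 0.65 for complex II in control tissue, 0.49 in culture and 0.083 in ESC, where the sign changed (the cause was not tested). For complex III they gave 0.72, 0.51 and 0.15, for complex IV in ESC 0.21 and for complex V in culture 0.50. A pseudocount of 0.1 gave -0.33 for complex II in ESC and 1.02 for complex III in control tissue. Centring on the median gene gave 245 genes higher and 255 lower in culture RNA, with 0 members higher, and 2 members lower in ESC RNA. Leaving out a control replicate gave 0 to 1 members higher in culture footprints and 1 to 3 lower in its ratio.

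With a replicate left out, the direction turned for these members, none past the threshold in any such fit. In footprints, Cox8a ran from -0.020 to 0.23 at 5 min, -0.049 to 0.26 at 10 min and -0.078 to 0.20 at 4 h. Atp5e at 5 min ran from -0.076 to 0.15, Sdha at 10 min from -0.23 to 0.0080, and at 30 min Cox7a2l from -0.033 to 0.15, Cycs from -0.15 to 0.032 and Uqcrh from -0.14 to 0.0082. At 4 h Cox6a1 ran from -0.048 to 0.12 and Sdhd from -0.20 to 0.00016. Atp5k RNA at 5 min ran from -0.0063 to 0.14. In the ratio, Uqcr11 at 30 min ran from -0.0099 to 0.14, Atp5d at 4 h from -0.020 to 0.14 and Cox6a1 at baseline from -0.092 to 0.026. The planned count test on recovered reads was not run, although every signal came out whole with the divisors used here, so how the calls depend on that choice of test is not known.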
